A study of Homo sapiens with 12 samples.

Results

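Kinectin (KTN1), the ribosome-binding protein p180 (RRBP1) and CLIMP-63 (CKAP4) are long coiled-coil proteins of the membrane of the endoplasmic reticulum (ER). The 3 genes were named beforehand, and each was taken from the transcript cluster of the array that is annotated with that gene alone. Each has 1 such cluster, so that 3 of the 21214 clusters with a gene name are described here. KTN1 was proposed because its value was known to be higher with 3α-THP and F than with V on these same arrays, and RRBP1 and CKAP4 were added for the role of their proteins. The values of KTN1 are therefore given as a description without a test. RRBP1, CKAP4 and the ER lists below were also chosen with earlier results of these data known, which limits their p-values.

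Total RNA of U87 cells, an established human glioblastoma line, was measured on 12 arrays after 72 h with 3α-THP (allopregnanolone, 10 nM), P4 (progesterone, 10 nM), F (finasteride, an inhibitor of 5α-reductase, 100 nM) or V (vehicle, DMSO). Each treatment has 3 arrays, numbered 1 to 3 as biological replicates from independent experiments, and all cells were kept in medium with charcoal-stripped serum free of phenol red from 24 h before treatment. The V group received 0.1% DMSO by its sample labels, while the treatment protocol of the same labels gives 10%. The values are log2 summaries per transcript cluster, and the array medians over the tested clusters ran from 6.35 to 6.40. VIM and CD44, genes of mesenchymal glioma cells, had log2 values of 12.4 to 12.6 and 11.7 to 11.98 over the 12 arrays. The astrocyte genes GFAP and S100B had 5.99 to 6.39 and 3.57 to 3.98, values that are not compared between genes. The glioma markers NES and SOX2 had 5.74 to 6.19 and 3.88 to 4.26. The defining markers PTPRC (leukocytes) and EPCAM (epithelium) had 2.84 to 3.10 and 3.42 to 3.96, and the macrophage gene CD68, which other cells also express, had 10.7 to 11.02. The epithelial gene KRT18 had 6.82 to 7.42 and the neuronal gene RBFOX3 5.61 to 6.26. The other markers, PECAM1, VWF, SYP, MBP and MOG, lay between 3.79 and 5.60. Of 6 glial markers and 10 markers of other cell types none passed the threshold given below with any steroid. Over all genes taken with 1 cluster each, 0.668% passed with 3α-THP, 0.0217% with P4 and 0.396% with F. Beside such shares, the lack of a call says little about these markers. RBFOX3 had a log2 fold change of 0.33 with P4 and with F (SE 0.11), under the fold of the threshold.

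The ER of most cells is a continuous membrane that forms flat sheets, which carry ribosomes, and a network of tubules. Kinectin, p180 and CLIMP-63 are enriched in sheets. Kinectin was found as a membrane anchor for kinesin, the motor that moves cargo toward the plus ends of microtubules, p180 was found as a receptor for ribosomes and also binds microtubules, and CLIMP-63 spans the lumen as a spacer between both sheet membranes and links the ER to microtubules.

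On the genome assembly GRCh38.p14 the KTN1 gene lies on chromosome 14 from 55580207 to 55684584, RRBP1 on chromosome 20 from 17613679 to 17682242 and CKAP4 on chromosome 12 from 106237881 to 106248020. KTN1 and the long non-coding RNA gene KTN1-AS1 (chromosome 14, 55576157 to 55580092) are transcribed away from each other, with 114 bases between their start sites. The promoter of KTN1 is shown because this stretch starts both transcripts, which have a cluster each on the array. The window runs from 250 bases before to 50 bases after the start of the gene in RefSeq (chr14:55579957-55580256, plus strand), and capitals mark the 114 bases between the starts.
KTN1: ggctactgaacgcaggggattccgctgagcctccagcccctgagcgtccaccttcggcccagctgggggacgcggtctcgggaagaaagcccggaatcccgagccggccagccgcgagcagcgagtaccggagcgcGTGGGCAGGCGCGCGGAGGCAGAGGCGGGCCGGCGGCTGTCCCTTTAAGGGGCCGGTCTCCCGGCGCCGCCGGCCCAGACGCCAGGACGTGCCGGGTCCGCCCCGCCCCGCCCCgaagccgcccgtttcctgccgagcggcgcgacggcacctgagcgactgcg
The study searched the promoters and adjacent regions of other genes for sites of CREB1, CEBPα and PXR, by matrix scores from several tools. The search here differs from it in method and region, and PXR was left out. The windows of KTN1, RRBP1 and CKAP4, cut as above, were searched on both strands for exact strings. These were TGACGTCA, the cAMP response element, its core TGACG, which lies within it, TTGCNNCAA and the CCAAT box. TTGCNNCAA was meant for C/EBP but is longer than its consensus, so that its counts do not stand for C/EBP sites. TGACGTCA, TGACG and TTGCNNCAA had no match in the 3 windows, and they are found in 1.85%, 24.6% and 1.99% of 35116 promoter windows of the same length. CCAAT, found in 34.6% of these windows, matched 3 times in RRBP1 and not in KTN1 or CKAP4. The promoter of RRBP1 (chr20:17682193-17682492, minus strand) is shown with these matches, CCAAT or ATTGG, in capitals.
RRBP1: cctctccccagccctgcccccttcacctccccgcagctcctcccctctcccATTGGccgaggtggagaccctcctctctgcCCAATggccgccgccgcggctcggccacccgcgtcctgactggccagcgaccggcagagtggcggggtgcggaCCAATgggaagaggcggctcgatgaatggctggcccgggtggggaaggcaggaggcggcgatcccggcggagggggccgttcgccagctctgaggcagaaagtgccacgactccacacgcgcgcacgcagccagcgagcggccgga
The bases G and C make up 75.7% of the KTN1 window, 72.7% of that of RRBP1 and 83.0% of that of CKAP4. No factor binding was measured here, and a missing match says only that these letters do not occur in the window.

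KTN1 had the highest mean with 3α-THP, followed by F, P4 and V. The 3 V arrays had log2 values of 8.44, 9.15 and 8.27 (replicates 1 to 3), the 3α-THP arrays 9.48, 9.86 and 9.79, the P4 arrays 8.47, 8.90 and 9.44 and the F arrays 9.70, 9.18 and 9.79. All arrays with 3α-THP or F lay above all V arrays, although F replicate 2 lay only just above V replicate 2. The P4 arrays overlapped with those of V and of F, and the 3α-THP and F arrays overlapped with each other. The group means were 9.71 ± 0.20 with 3α-THP, 9.56 ± 0.33 with F, 8.93 ± 0.48 with P4 and 8.62 ± 0.47 with V (SD, n = 3). Of the neighbors in this order, V and P4 differed by 0.32, P4 and F by 0.62 and F and 3α-THP by 0.15, each beside arrays that overlap.

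**Figure D1:**
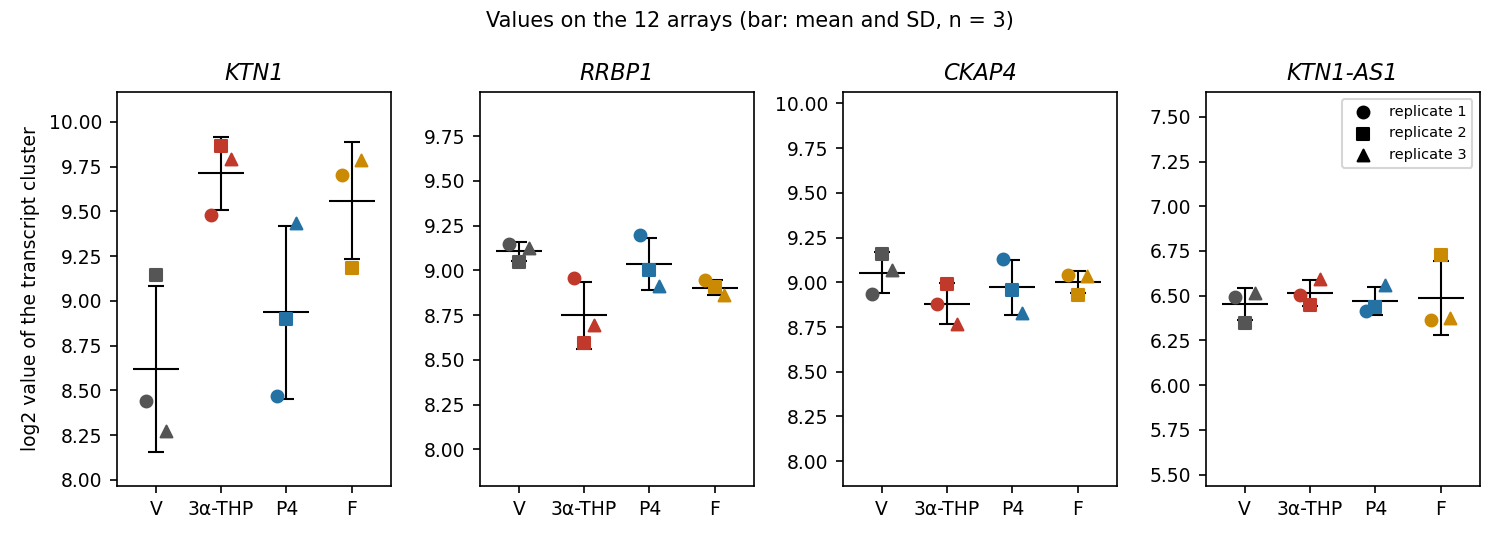
Log2 values of KTN1, RRBP1, CKAP4 and KTN1-AS1 (vertical axis, the same width in each panel) by treatment, with a symbol for each replicate number and bars for the mean and SD of 3 arrays. KTN1 reaches 9.48 to 9.86 with 3α-THP against 8.27 to 9.15 with V, RRBP1 is lower with 3α-THP and F than with V, and CKAP4 and KTN1-AS1 overlap between all treatments.

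The mean of KTN1 was above that of V in log2 units by 1.09 with 3α-THP (SE 0.26), which is a fold of 2.13, by 0.94 with F (SE 0.26), a fold of 1.92, and by 0.32 with P4 (SE 0.26), a fold of 1.24. These comparisons share the V arrays. In RNA of whole cultures a change per cell and a change in which cells are present cannot be told apart. The study's threshold asks for more than 1.5-fold and for p below 0.05 before adjustment. RRBP1 and CKAP4 did not pass it with any steroid, and for KTN1, which was chosen on these comparisons, no call is given. Over all tested clusters this threshold called 0.679% with 3α-THP, 0.396% with F and 0.0236% with P4. Clusters whose arrays all lay above those of V made up 4.02% with 3α-THP and 3.6% with F. Between the steroids, KTN1 was higher with 3α-THP than with P4, both at 10 nM, by 0.78 (SE 0.26), and P4 minus F was -0.62 (SE 0.26), at doses that differ. Without P4 replicate 1 these values were 0.54 and -0.39.

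The size of the KTN1 difference varied between replicate numbers. Taken within a number, 3α-THP minus V was 1.04, 0.72 and 1.52 for replicates 1 to 3, and F minus V was 1.26, 0.038 and 1.52. P4 minus V was 0.030, -0.25 and 1.17. With 3α-THP all 3 differences were above 0.7, with F the difference was near 0 in replicate 2, and with P4 it was large in replicate 3 alone. V replicate 2 had the highest and V replicate 3 the lowest KTN1 value of the V arrays, and each enters all 3 comparisons. Without V replicate 2 the log2 fold changes were 1.36 with 3α-THP, 1.20 with F and 0.58 with P4, and without V replicate 3 they were 0.92, 0.77 and 0.14. Without P4 replicate 3 the value with P4 was 0.066. The SD of KTN1 within treatments, 0.39, was larger than that of 97.9% of the tested clusters.

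**Figure D2:**
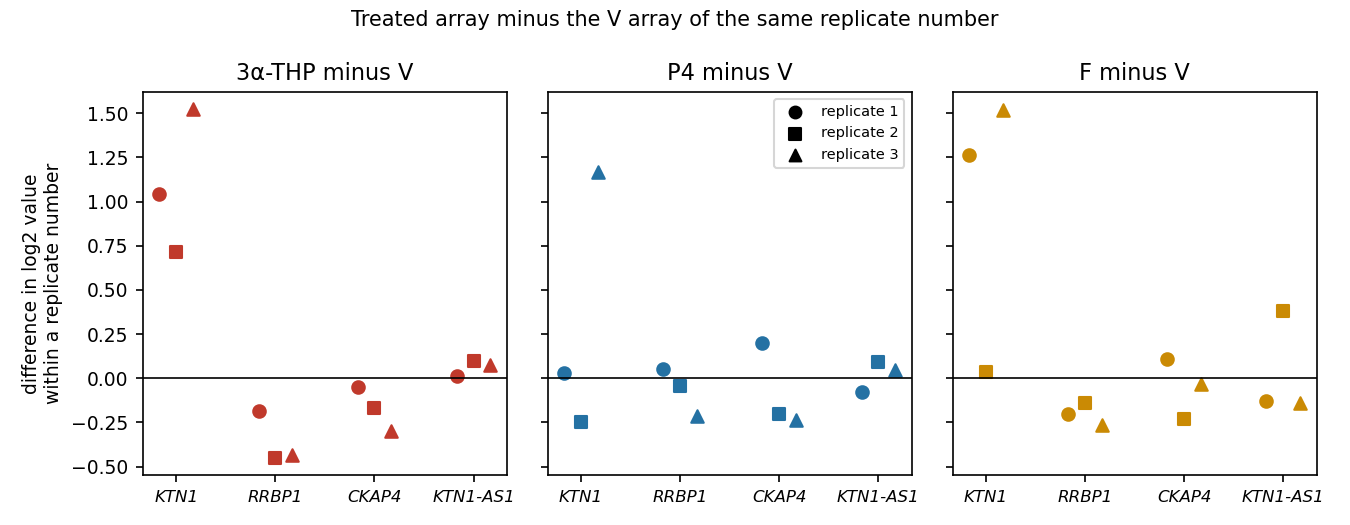
Difference in log2 value between the treated array and the V array of the same replicate number, for KTN1, RRBP1, CKAP4 and KTN1-AS1 (horizontal axis), in a panel for each steroid. KTN1 is above 0.7 in the 3 replicates with 3α-THP, near 0 in replicate 2 with F and above 1 with P4 in replicate 3 alone, while RRBP1 is below 0 in every replicate with 3α-THP and F.

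KTN1-AS1, the divergent transcript, had log2 values of 6.49, 6.35 and 6.52 on the V arrays, 6.50, 6.45 and 6.59 with 3α-THP, 6.41, 6.44 and 6.56 with P4 and 6.36, 6.73 and 6.38 with F. All 4 treatments overlapped. Against V the difference was 0.062 with 3α-THP (95% interval -0.16 to 0.29, limma, adjusted p = 0.950), 0.019 with P4 (-0.21 to 0.24, adjusted p = 1) and 0.036 with F (-0.19 to 0.26, adjusted p = 0.999). Whether KTN1 and KTN1-AS1 differed in their response was not tested, since KTN1 was chosen on this comparison.

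RRBP1 was lower with 3α-THP than with V on every array, by a smaller amount than the threshold asks for. The V arrays had log2 values of 9.14, 9.05 and 9.13, the 3α-THP arrays 8.96, 8.60 and 8.69, the P4 arrays 9.20, 9.002 and 8.91 and the F arrays 8.94, 8.90 and 8.86. The arrays with 3α-THP and those with F lay below all V arrays, and those with P4 overlapped with V. Such a separation downward was found in 7.28% of all tested clusters with 3α-THP and in 5.51% with F. The group means were 9.11 ± 0.052 with V, 9.04 ± 0.15 with P4, 8.90 ± 0.041 with F and 8.75 ± 0.19 with 3α-THP (SD, n = 3), the reverse of the order in KTN1. Here too the arrays of neighbors overlap. V and P4 differed by 0.068, P4 and F by 0.13 and F and 3α-THP by 0.15. The log2 fold change with 3α-THP was -0.36 (SE 0.10, 95% interval -0.58 to -0.13), a fold of 0.781 (limma, unadjusted p = 0.00439, adjusted p = 0.463). With F it was -0.20 (SE 0.10, 95% interval -0.43 to 0.021, limma, adjusted p = 0.999) and with P4 -0.068 (SE 0.10, 95% interval -0.29 to 0.16, limma, adjusted p = 1). Of all tested clusters 7.34% had p below 0.05 before adjustment with 3α-THP. Within replicate numbers 3α-THP minus V was -0.19, -0.45 and -0.43, and F minus V was -0.20, -0.14 and -0.26, below 0 in 3 of 3 replicates with each. Against P4, RRBP1 had -0.29 with 3α-THP (95% interval -0.51 to -0.065, limma, adjusted p = 0.999), with arrays that overlap.

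CKAP4 overlapped between all treatments. Its log2 values were 8.93, 9.16 and 9.07 with V, 8.88, 8.99 and 8.77 with 3α-THP, 9.13, 8.95 and 8.83 with P4 and 9.04, 8.93 and 9.03 with F. All 12 values lay within 0.39 of each other. Differences from V were -0.17 with 3α-THP (95% interval -0.39 to 0.041, limma, adjusted p = 0.764), -0.082 with P4 (-0.30 to 0.13, adjusted p = 1) and -0.051 with F (-0.26 to 0.16, adjusted p = 0.999). These intervals lie within a fold of 1.5 in either direction. CKAP4 minus V within a number was below 0 in 3 of 3 replicates with 3α-THP, at -0.052, -0.17 and -0.30, and went both ways with P4 and F. The share of all clusters below 0 in 3 of 3 replicates is not given. A positive log2 fold change with 3α-THP was found in 41.1% of all tested clusters, so that a shared sign below 0 says little.

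The 3 members were also compared within each array, as a description. Set to 0 at the V mean, the log2 difference KTN1 minus RRBP1 was 1.45 ± 0.39 with 3α-THP (lowest array 1.01, highest 1.75), 1.14 ± 0.34 with F (0.77 to 1.41) and 0.38 ± 0.62 with P4 (-0.24 to 1.01; SD, n = 3), where the V arrays ran from -0.37 to 0.59. KTN1 minus CKAP4 was 1.27 ± 0.22 with 3α-THP and 0.99 ± 0.27 with F. RRBP1 minus CKAP4 stayed between -0.45 and 0.16 on all 12 arrays. With 3α-THP and with F the mean of KTN1 was thus above that of V, and the means of RRBP1 and CKAP4 were below it.

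Other ER genes were taken from 6 lists by their function, with 99 of 104 genes measured in a cluster of their own. With 3α-THP 2 of the 99 rose and the other 97 did not reach the threshold, so that 2.02% were called beside 0.668% of all 18418 genes taken with 1 cluster each. With P4 and with F none of the 99 passed, beside 0.0217% and 0.396%. The median log2 fold change of the 99 was -0.051 with 3α-THP, -0.0097 with P4 and -0.014 with F, beside -0.027, -0.013 and -0.021 over all tested clusters. By the adjusted p of limma 0 of the 99 passed with any steroid, beside 0.00471% of all tested clusters with 3α-THP and with F and 0% with P4. Before adjustment 9, 0 and 3 had p below 0.05 with 3α-THP, P4 and F, where 7.34%, 1.82% and 4.69% of all tested clusters did. These counts are from the fit without the replicate number. With the number as a block more of the 99 had p below 0.05 with each steroid, and that share of all clusters is not given. By the threshold 2 of the 99 then passed with 3α-THP, 0 with P4 and 0 with F. The shares of all tested clusters were 0.74%, 0.0283% and 0.424%.

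Of 22 genes that shape ER tubules and sheets (reticulons, REEP proteins, atlastins and others) none passed the threshold with any steroid, and their values ran from -0.29 to 0.18 with 3α-THP. Over all genes taken with 1 cluster each 0.668% passed with 3α-THP, 0.0217% with P4 and 0.396% with F. At such shares, a list without a call is no result about its genes, here or in the lists below. REEP6 had -0.29 with 3α-THP (SE 0.12) and RTN2, a reticulon, -0.22 (SE 0.12). REEP4, which keeps the ER away from mitotic chromosomes, had -0.22 with F (SE 0.11). All its F arrays lay below V, as in 5.51% of all tested clusters. RTN1 and REEP1 had -0.14 and 0.16 with P4. Of 31 genes of the signal recognition particle, the translocon, signal peptidase and oligosaccharyltransferase none passed. A positive value was found for 6 of them with 3α-THP, 8 with P4 and 8 with F, where 41.1%, 43.9% and 41.8% of all tested clusters had one. The comparisons share the V arrays, so that these counts are not independent of each other. SEC61B, a subunit of the translocon channel, had log2 values of 9.45, 9.58 and 9.35 with V and 9.08, 9.10 and 9.07 with 3α-THP. All 3α-THP arrays lay below the V arrays, as in 7.28% of all tested clusters. The log2 fold change was -0.38 (SE 0.082, limma, unadjusted p = 0.000539, adjusted p = 0.376), under the fold of the threshold. SSR4, a subunit of the translocon-associated protein complex, had -0.31 with 3α-THP (SE 0.11), and SEC62, a translocation factor, had 0.26 with F (SE 0.12). SEC11C, a subunit of signal peptidase, had -0.20 with P4 (SE 0.18).

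Of 17 genes of folding in the ER lumen none passed. The chaperone HYOU1 had -0.25 with 3α-THP (SE 0.082) and UGGT2, a folding sensor of glycoproteins, 0.25 (SE 0.11), and the protein disulfide isomerase PDIA6 had -0.076 with P4 (SE 0.098). Among 15 genes of kinectin partners (the motor kinesin-1, translation elongation factor 1 and others) none passed either. KIF5B, the widely expressed heavy chain of kinesin-1, had log2 values of 9.25, 9.84 and 9.13 with V, 9.50, 10.3 and 9.96 with 3α-THP and 9.74, 9.91 and 9.77 with F. The 3α-THP and F arrays overlapped with V replicate 2. Against V it had 0.51 with 3α-THP (SE 0.20, limma, adjusted p = 0.614) and 0.40 with F (SE 0.20, limma, adjusted p = 0.999), and it passed the threshold without V replicate 2, at 0.73 and 0.62, and with 3α-THP also without 3α-THP replicate 1, at 0.73, and with array weights, at 0.67. CDC42, a regulator of cell polarity, had 0.19 with P4 (SE 0.11), and EEF1B2, a subunit of elongation factor 1, had -0.19 with F (SE 0.12). DKK1, a secreted Wnt inhibitor that binds CLIMP-63 at the cell surface, had 0.29 with 3α-THP (SE 0.11), and ZDHHC2, which palmitoylates CLIMP-63, 0.15 (SE 0.17), neither past the threshold. The log2 values of DKK1 were low, at 3.08 to 3.69 over the 12 arrays, whose medians ran from 6.35 to 6.40.

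Of 12 genes of ER contact sites 2 rose with 3α-THP, which is 16.7% beside 0.668% of all genes taken with 1 cluster each. These were VPS13A and VPS13C, which encode bridges for the transfer of lipids between the ER and other organelles. VPS13A had log2 values of 6.33, 6.88 and 6.32 with V and 6.97, 7.42 and 7.44 with 3α-THP, and VPS13C had 7.86, 8.35 and 7.55 with V and 8.48, 8.67 and 8.65 with 3α-THP. All 3α-THP arrays lay above the V arrays in both genes, as in 4.02% of all tested clusters. VPS13A rose by 0.77 (SE 0.21, limma, adjusted p = 0.415) and VPS13C by 0.68 (SE 0.19, limma, adjusted p = 0.424), and VPS13C did not pass the threshold without V replicate 3. With F both had 0.58 (SE 0.21 and 0.19), at the edge of the fold of 1.5, with arrays that overlap through replicate 2. As in KTN1, V replicate 2 and P4 replicate 3 were the highest arrays of their treatments in both genes. F replicate 2 was the lowest F array in both, again as in KTN1. The 2 genes thus moved together over the arrays and are not independent counts for their list. The tether VAPA had -0.14 with P4 (SE 0.087).

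**Figure D3:**
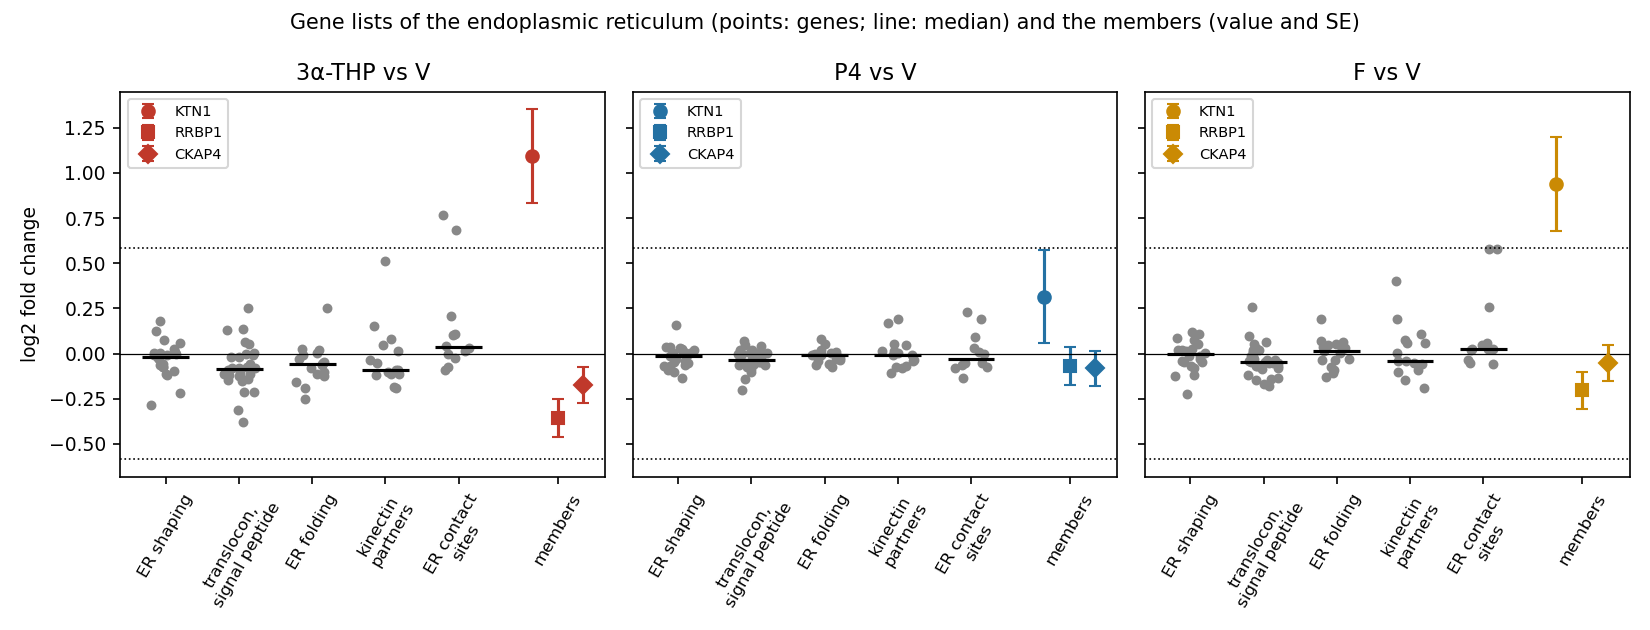
Log2 fold changes against V (vertical axis) of the genes of 5 ER lists (points, with the median as a line) and of KTN1, RRBP1 and CKAP4 with their SE, in a panel for each steroid, where dotted lines mark a fold of 1.5. With 3α-THP, KTN1 lies at 1.09, VPS13A and VPS13C are the only list genes past the dotted line, and RRBP1 lies at -0.36.

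The genes whose profile was closest to that of KTN1 were found by the root-mean-square difference of the centered log2 values over the 12 arrays, among 18417 other genes. The 5 closest were RB1CC1, a subunit of the kinase complex that begins autophagy, at 0.054, TPR, a protein of the nuclear pore basket, at 0.091, RAD50, of double-strand break repair, at 0.10, RIF1, a factor of replication timing, at 0.12, and BOD1L1, which protects replication forks, at 0.13. A gene without any variation would have lain at 0.55 from KTN1. RB1CC1 thus followed KTN1 on single arrays, including the high V replicate 2, the low F replicate 2 and the high P4 replicate 3. RB1CC1 was also the closest by the correlation over the 12 arrays and after the replicate means were removed, and TPR held place 3 by both, while RAD50, RIF1 and BOD1L1 held places 4, 12 and 21 by the correlation. Since these genes were chosen for a profile like that of KTN1, their differences between treatments are not further evidence of it. The study retested TPR, RAD50 and RIF1 by RT-qPCR, and KTN1 was not among its retested genes. By its account 3α-THP or F alone left TPR and RAD50 unchanged, while each raised RIF1. P4 raised TPR. The genes closest to RRBP1 were JUN at 0.044, AGRN at 0.060 and ZNF358 at 0.063, where a gene without variation would have lain at 0.17. For CKAP4 they were PIGB at 0.057, ERCC1 at 0.058 and VESTAR at 0.058, against 0.11 for a gene without variation.

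**Figure D4:**
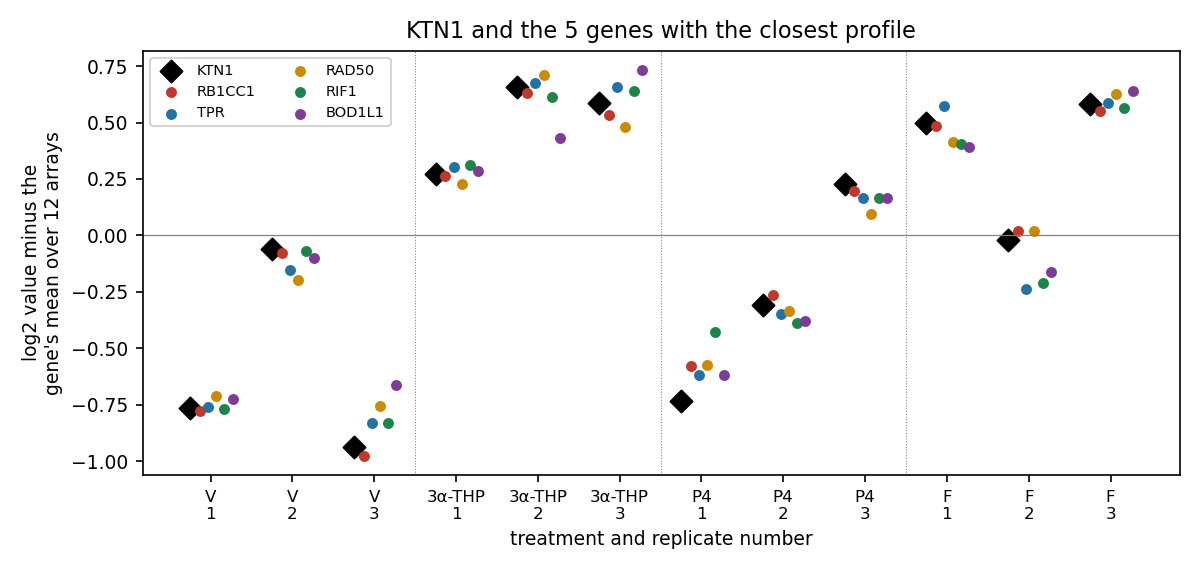
Log2 value minus the mean of each gene over the 12 arrays (vertical axis) for KTN1 and the 5 genes with the closest profile, by treatment and replicate number. All 6 genes lie below 0 on the V arrays and above 0 on the 3α-THP arrays. They lie apart on some arrays, such as P4 replicate 1, with KTN1 at -0.74 and RIF1 at -0.43.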

How the data were processed

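The authors extracted total RNA, hybridized it to Affymetrix Human Gene 1.0 ST arrays and deposited log2 values per transcript cluster, made with Affymetrix Expression Console 1.4 per the labels. The study's methods name quantile normalization and RMA. No value was missing and no array was left out. Genes were named through the platform annotation: of 33297 clusters 21214 carry a gene and were tested, and 19461 of these name a single gene. The level of a cluster was not set against that of another, since probes differ.

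All 12 arrays entered a single fit in limma 3.58.1 (R 4.3.3), with a mean for each treatment, moderated variances (prior degrees of freedom 4.73) and Benjamini-Hochberg adjustment over all tested clusters. A call needs more than 1.5-fold and p below 0.05 before adjustment, as in the methods. Errors are SE of the fit, or SD where so named. Precision is limited by 3 arrays in each treatment, and p-values measure the spread between these arrays.

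Replicate numbers pair the arrays, and the series describes independent experiments. Deviations from the treatment means correlated at 0.132 to 0.631 in 18 pairs of arrays with the same number. The median was -0.245 in 36 pairs with different numbers. Deviations sum to 0 within a treatment, so that this negative median follows from the positive values and is not separate evidence. The fit without the number follows the unpaired methods.

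A gene with several clusters entered the lists with its brightest. From each list, genes past the threshold were to be named, and for each comparison with V also the 2 lowest p-values, of which most are given. The members and lists were chosen with earlier results of these data known. Promoters are from RefSeq (GRCh38.p14), where KTN1, RRBP1, CKAP4 and KTN1-AS1 matched. Alternatives are given in the closing section.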

Additional observations from a re-analysis of the deposited data

How the results depend on the processing

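Each member was compared with V under 13 other settings and without each of the 12 arrays. KTN1 was chosen on these comparisons, so that its values are given as a description. Without single arrays the range of KTN1 was 0.92 (without V replicate 3) to 1.36 (without V replicate 2) with 3α-THP, 0.77 to 1.20 with F and 0.066 to 0.58 with P4. Every treatment has every replicate number, so that the number as a block cannot move a log2 fold change. RRBP1 and CKAP4 therefore could not be called with it, and KTN1 kept 1.09 with 3α-THP. The block changed the errors, for KTN1 to SE 0.24 from 0.26. RRBP1 with 3α-THP went to SE 0.082 from 0.10 (limma, unadjusted p = 0.000859 from 0.00439, adjusted p = 0.102 from 0.463). With F its unadjusted p was 0.0286 from 0.0720 (limma, adjusted p = 0.507 from 0.999). CKAP4 with 3α-THP had SE 0.095 from 0.099. Of these settings 2 were chosen after seeing the data. Without the 4 arrays numbered 2, KTN1 had 1.39 with F and 0.60 with P4. With the trend with gene span removed from each array, KTN1 had 1.08 with 3α-THP and 0.92 with F. RRBP1 stayed below 0 and under the threshold throughout, at -0.46 to -0.28 with 3α-THP, -0.23 to -0.18 with F and -0.15 to -0.0058 with P4 without single arrays. CKAP4 ranged from -0.23 to -0.12 with 3α-THP, from -0.11 to 0.0023 with F and from -0.16 to -0.011 with P4. It turned to 0.0023 with F without V replicate 2 and to 0.038 without the 4 arrays numbered 2, and between P4 and F to 0.040 without P4 replicate 3. The cause was not tested. Of the ER lists, 1 to 3 genes passed with 3α-THP without single arrays, 0 with P4 and 0 to 3 with F, 3 without V replicate 2 and 2 without F replicate 2. With array weights 3 passed with 3α-THP, KIF5B among them. With F 2 genes, VPS13A and VPS13C, passed after quantile or cyclic loess normalization, with equal array medians, with array weights and without the arrays numbered 2. No member has a further cluster to compare, so that this alternative was not run.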
